A study of Mus musculus with 6 samples.

Results

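Translation initiation factors were taken as the protein-coding mouse genes whose symbols begin with Eif1 to Eif6, with the Eif2ak kinases and Eif2s3y left out. The rule found 50 genes among the 55487 identifiers of the table, of which 21897 were protein coding. The genes fell into 10 lists by factor complex: 5 of eIF1 and eIF1A, 5 of eIF2 and other carriers of initiator tRNA, 5 of eIF2B, 14 of eIF3, 4 cap-binding eIF4E proteins, 3 eIF4G scaffolds, 5 eIF4A helicases and cofactors, 4 eIF4E-binding repressors, 3 of eIF5, eIF5B and eIF6, and 2 of eIF5A. Of these genes, 48 were tested, since their normalized counts averaged 10 or more across all 6 libraries. Eif4e1b, an eIF4E of the germ line, was counted at 0 in all 6 libraries, and Eif4ebp3, a 4E-binding protein, had a mean of only 9.05; neither was tested.

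Initiation factors bring the initiator methionyl-tRNA and the messenger RNA to the small ribosomal subunit. The eIF2 complex carries the tRNA and is recharged with GTP by eIF2B, eIF3 holds the preinitiation complex together, and the cap-binding eIF4E, the scaffold eIF4G and the helicase eIF4A load the messenger RNA. Blood cell precursors and leukemia cells that divide rapidly make many of these factors, and phosphorylation of eIF2 or binding of eIF4E by 4E-binding proteins slows initiation.

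RNA-seq was performed on GFP+ bone marrow cells from femora and tibiae of C57BL/6 mice that carried MLL-AF9 (MA9) leukemia, with 3 libraries per group. Donor cells in both groups were CD45.2(+) Mx1-Cre Brd9fl/fl MA9, transplanted at 1000 cells into CD45.1(+) CD45.2(-) recipients irradiated with 2 fractions of 450 cGy. The labels give these 2 fractions, whereas the methods state sublethal irradiation with 450 cGy. One group received 3 doses of PBS, and the other 3 doses of pIpC (polyinosinic-polycytidylic acid, a mimic of double-stranded RNA) at 20 mg/kg, and cells were collected 10 days after injection; recipients were 6 weeks old at transplantation by the methods, and the labels give no age. The Mx1 promoter drives Cre in interferon-responsive cells, so the effects of pIpC itself and of a Brd9 deletion cannot be told apart in these groups, and the labels do not tie libraries to single animals, so p-values measure the spread between these libraries, which may be technical.

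Several facts of the whole table touch every value below. Brd9, whose floxed exons are part of the gene, was counted at 1927, 1946 and 1632 in the PBS libraries and at 2036, 2263 and 2011 in the libraries labelled pIpC, so it was not lower, although a count over the whole gene can miss the loss of a few exons (log2 fold change 0.20, limma adjusted p = 0.259; exact 2-sided permutation p = 0.1, the smallest that 3 against 3 allows). The group is therefore called "libraries labelled pIpC". Genes of maturing neutrophils, 14 of 14, were higher there, with a summed normalized count of 28459 to 49965 in PBS and of 2109380 to 2166800 in the libraries labelled pIpC. All 15 erythroid markers were higher (summed 38.9 to 61.1 against 6731 to 9660, with Slc4a1 and Rhag at 0 in every PBS library), as were all 15 B cell markers (1792 to 3014 against 11496 to 41121; Ms4a1 at 0 in PBS), all 8 T and NK markers tested of 12 (187 to 330 against 4032 to 4651; Trac at 0 in PBS) and 10 of 12 macrophage markers, although the macrophage sum was 10355 to 14712 against 7227 to 9707. Markers at or near 0 in PBS reached the mean of 10 needed for the test only through the libraries labelled pIpC. Their calls could only be higher, and the summed counts are given as a description. Of 12 genes of MLL-AF9 leukemia cells, 8 were lower and 2 higher (44073 to 50315 against 18187 to 18681). Fewer cells of a type and less RNA per cell cannot be told apart in bulk RNA, and the part of this difference in cell content in the results on initiation factors was not tested. Xist, the RNA of the inactive X chromosome in female cells, also split the groups (15.8 to 72.9 in PBS against 18429 to 26173). A difference in the sex of the cells therefore cannot be told apart from the treatment in these groups. Its part in the values of any factor, autosomal or X-linked, was not tested.

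PBS replicate 3 stood apart from the other PBS libraries for these genes. It held the highest value of all 6 libraries for 35 of the 48 factors (72.9%), against 34.4% of all genes tested, and the lowest for 8. The median factor was 0.60 higher on the log2 scale in PBS replicate 3 than in the mean of PBS replicates 1 and 2. The excess went with short exon length: across the 48 factors, which share the same libraries, its correlation with log2 exon length was -0.58 (Spearman -0.57), and across 14977 genes it was -0.27 (Spearman -0.44). Eif6 (2702 bases) was 1.24 higher and Eif1b (1125 bases) 1.13 higher in that library, whereas Eif4g1 (7301 bases) was 0.93 lower, given here as differences in log2 normalized count. Not every long factor was lower: Eif5b (9753 bases) was 0.92 higher. Of the 48 factors, 36 lay above the mean of PBS replicates 1 and 2 and 12 below it. Differences of the initiation factors are therefore given also without PBS replicate 3.

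**Figure D1:**
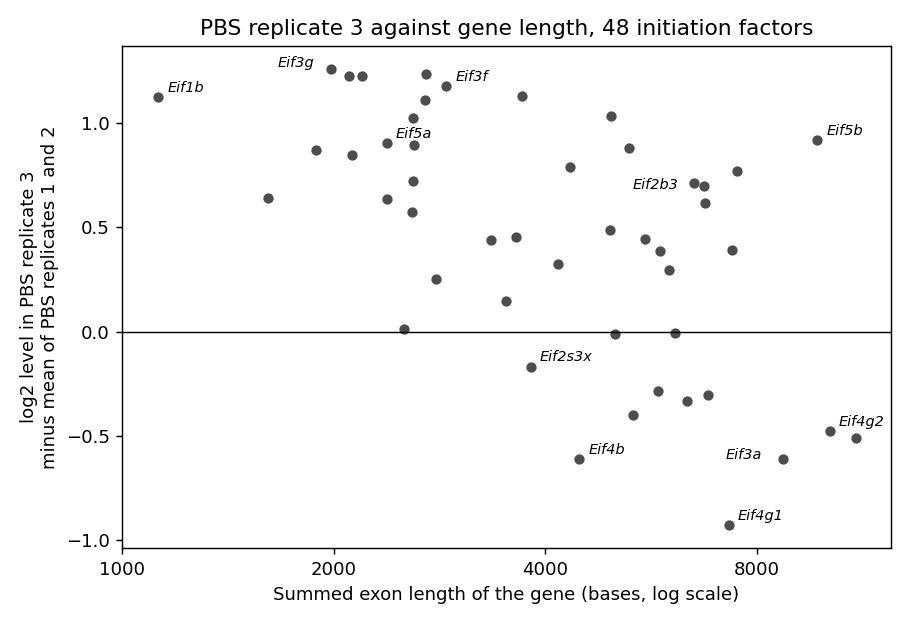
Each point is 1 of the 48 initiation factors tested. The horizontal axis is the summed exon length in bases on a log scale, and the vertical axis is the log2 level in PBS replicate 3 minus the mean of PBS replicates 1 and 2. The median point lies at 0.60, and Eif4g1 lies lowest, near -0.93.

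The comparison of the libraries labelled pIpC with PBS asked which factors changed after treatment meant to delete Brd9. In it, 9 factors were lower and 3 were higher at a limma adjusted p under 0.1, so that 12 of 48 passed (25%), where 45.3% of all genes tested passed (20.4% lower, 25.0% higher). The lower factors were Eif2b3, Eif2s1, Eif3b, Eif3e, Eif3h, Eif3j1, Eif3j2, Eif3m and Eif4a1, and the higher were Eif2s3x, Eif4e3 and Eif4ebp2. The share of factors that passed was below the share of all genes in total and in the higher direction, and close to it in the lower direction. These shares are given as a description. The log2 fold change was below 0 for 39 of the 48, against 49.2% of all genes, and their median was -0.31 against 0.01 for all genes. The groups did not overlap for 22 factors (45.8%; 56.8% of all genes), with the libraries labelled pIpC below PBS for 18 of them (26.3% of all genes) and above for 4 (30.5%). A change of 1.5-fold with an adjusted p under 0.1 was reached by 9 factors, 8 lower and 1 higher, where 38.4% of all genes reached it (17.0% lower).

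The number of calls followed single libraries. Without PBS replicate 3, 30 factors passed (23 lower, 7 higher), against 65.1% of all genes (30.6% lower, 34.5% higher), all 12 calls were kept, 32 of 48 log2 fold changes were below 0 (49.4% of all genes) and their median was -0.16. Without pIpC replicate 2 or without pIpC replicate 3, only Eif2b3, Eif3j2 and Eif2s3x passed (31.0% and 31.6% of all genes), and 8 factors passed without pIpC replicate 1 (33.7% of all genes). No call among the 12 changed direction when any library was left out. Other ways of fitting also moved the number: 21 factors passed after quantile normalization (1 higher, 20 lower; 48.7% of all genes, 21.6% higher and 27.2% lower), a scaling that put the median log2 fold change of all genes at -0.12 and that of the factors at -0.38. With edgeR on the recovered reads, 13 passed (2 higher, 11 lower; 45.9% of all genes, 23.7% higher and 22.2% lower). DESeq2 called 19 (3 higher, 16 lower; 49.6% of all genes, 25.5% higher and 24.2% lower). The trend of each library with exon length was also removed, a setting added after PBS replicate 3 was seen. Then 18 passed, 4 higher and 14 lower (51.2% of all genes, 29.0% higher and 22.1% lower), and all 12 calls were kept. The share of factors called lower was above that of all genes in this setting, without PBS replicate 3, after quantile normalization and with DESeq2. With edgeR it was near that of all genes. Without pIpC replicate 2 or without pIpC replicate 3 it was below.

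**Figure D2:**
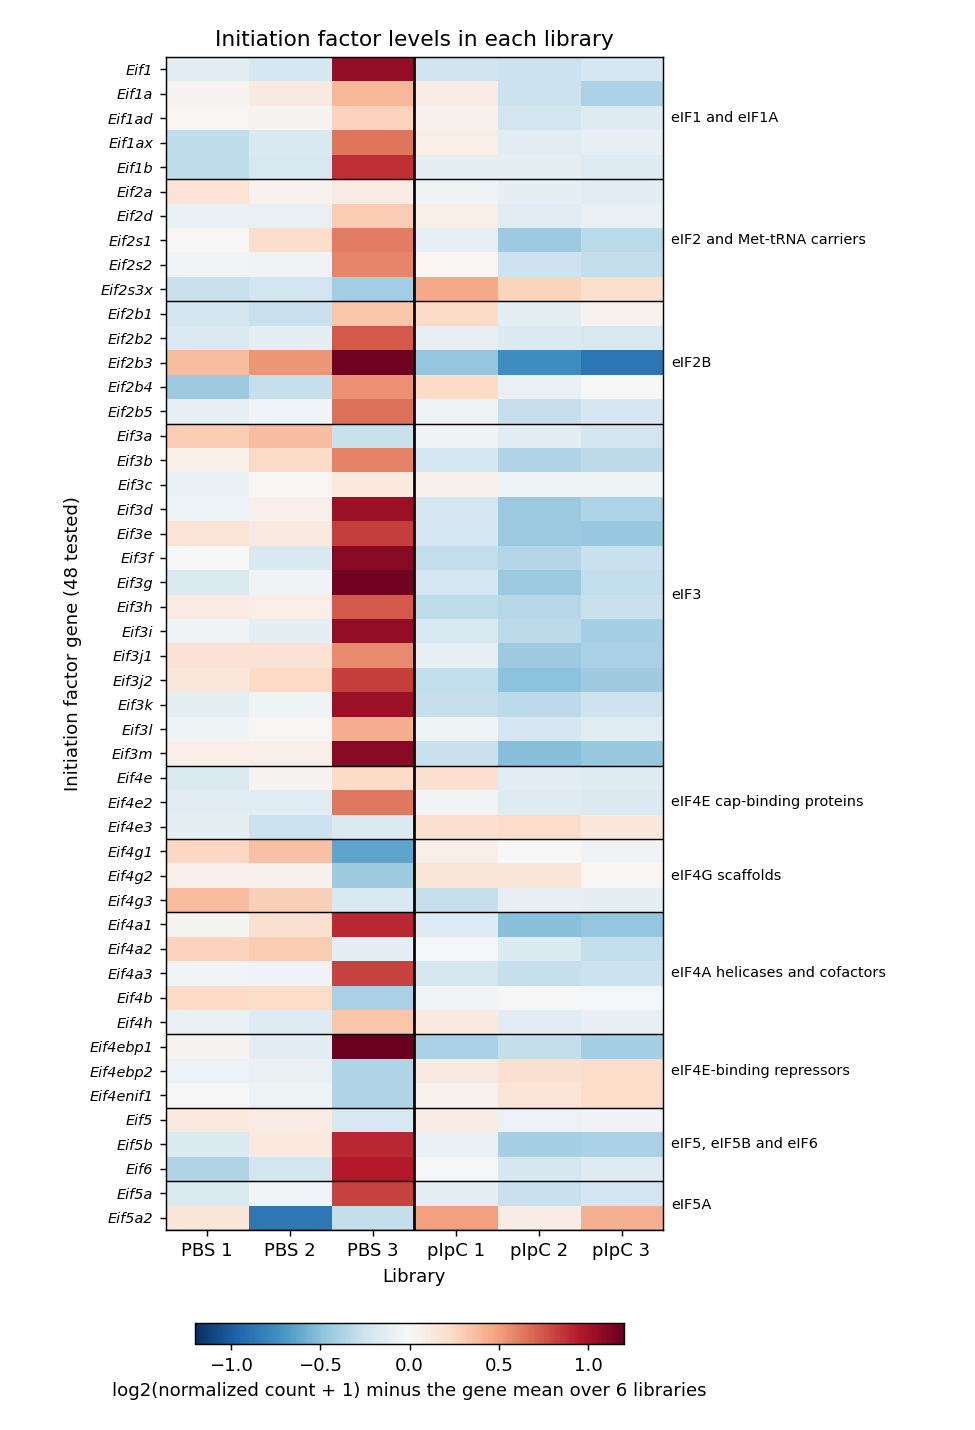
Rows are the 48 factors tested, grouped by complex, and columns are the 6 libraries. Color gives log2(normalized count + 1) minus the mean of that gene over the 6 libraries. PBS replicate 3 is the highest column for 35 factors, and Eif2b3 is low in all 3 libraries labelled pIpC.

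RefSeq promoter windows (GRCm38.p6, 250 bases before to 50 after a start) were matched by symbol for 38 of the 50 genes, with 50 windows. They were searched on both strands for the E-box CACGTG, which MYC and MAX bind, for the ETS core CCGGAAG, for the YY1 core AAGATGGC and for the ATF4 element TGATGNAAT. The E-box stood in windows of 10 of 38 genes (26.3%), against 11.6% of 10307 tested genes with a window. The ETS core stood in 15 genes (39.5% against 20.2%), the YY1 core in 4 (10.5% against 5.25%) and the ATF4 element in 0 (0.58% of tested genes). With all 6 libraries, PBS replicate 3 among them, genes with an E-box had a median log2 fold change of -0.26. The 28 other genes with a window had -0.28. The part of MYC in these values was not tested. Myc itself fell, from 2667, 2582 and 4145 to 1834, 1727 and 1670 (log2 fold change -0.81, limma adjusted p = 0.019), and 1 of the 10 E-box genes, Eif4a1, passed the test, as did 6 of the 28 others with a window, where 45.3% of all genes passed. The 250 bases before the start are shown for a helicase that fell, for an eIF3 subunit with an E-box that did not pass, and for a repressor that rose; capitals mark the motifs, none of which overlap each other here, and no annotated exon lies in these windows.
Eif4a1: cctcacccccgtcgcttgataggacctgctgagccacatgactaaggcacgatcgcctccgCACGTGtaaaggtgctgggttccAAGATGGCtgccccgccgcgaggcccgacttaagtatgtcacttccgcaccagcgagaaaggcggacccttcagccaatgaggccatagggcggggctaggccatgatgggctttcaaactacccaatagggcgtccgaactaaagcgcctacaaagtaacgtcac
Eif3f: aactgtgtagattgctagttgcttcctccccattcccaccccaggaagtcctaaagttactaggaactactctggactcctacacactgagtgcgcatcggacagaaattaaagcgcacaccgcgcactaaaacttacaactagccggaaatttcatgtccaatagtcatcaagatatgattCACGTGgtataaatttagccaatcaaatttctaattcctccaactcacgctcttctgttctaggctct
Eif4ebp2: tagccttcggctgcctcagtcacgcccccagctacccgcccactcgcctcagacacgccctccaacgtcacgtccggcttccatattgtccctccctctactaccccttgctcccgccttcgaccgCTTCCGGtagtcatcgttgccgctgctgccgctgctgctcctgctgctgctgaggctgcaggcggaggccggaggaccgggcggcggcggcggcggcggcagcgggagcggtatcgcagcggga
The first window, chr11:69672424-69672673 on the minus strand, holds an E-box whose first base is at -189 from the start and a YY1 core at -166. The window of Eif3f, chr7:108934165-108934414 on the plus strand, holds an E-box at -68. The window of Eif4ebp2, chr10:61452670-61452919 on the minus strand, holds an ETS core on the opposite strand at -124.

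The scanning factors did not pass the test in any of 5 cases. Eif1, which guards the choice of the start codon, was counted at 5359, 5065 and 12211 in PBS and at 4980, 4915 and 5098 in the libraries labelled pIpC (log2 fold change -0.47 ± 0.33 SE, limma adjusted p = 0.309). The difference came down to -0.06 without PBS replicate 3, the only library in which Eif1 stood apart. Its copy Eif1b was at 835, 903 and 1898 against 951, 961 and 928, a log2 fold change of -0.25 that became 0.12 without PBS replicate 3. Eif1a and Eif1ax encode the tRNA-positioning partner eIF1A, and reads of such near-identical copies may be shared between them. Eif1a was at 1567, 1643 and 2012 against 1638, 1277 and 1173 (-0.36; -0.25 without PBS replicate 3), and the X-linked Eif1ax at 1784, 1938 and 3423 against 2322, 2000.5 and 2050.04. The log2 fold change of Eif1ax was -0.10, and without PBS replicate 3 it was 0.19 (limma adjusted p = 0.081). Eif1ad, an eIF1A-domain protein, ranged from 1213 to 1703 over the 6 libraries (-0.21; -0.13 without PBS replicate 3), and 15.3% of its exon bases lie opposite Banf1, from which unstranded libraries cannot tell it apart.

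Of the 3 subunits of eIF2, 1 fell, 1 rose and 1 did not pass. Eif2s1, the alpha subunit that is phosphorylated under stress, was counted at 2778, 3158 and 4162 in PBS and at 2542, 2021 and 2184 in the libraries labelled pIpC, and fell by 0.57 ± 0.18 (SE) on the log2 scale (limma adjusted p = 0.050; -0.40 without PBS replicate 3). Eif2s2, the beta subunit, was at 3792, 3765 and 5798 against 3941, 3264 and 3175 and did not pass (-0.34, limma adjusted p = 0.233; -0.13 without PBS replicate 3). Eif2s3x, the X-linked gene of the gamma subunit that binds GTP and the tRNA (chromosome X, 94188707 to 94212862), was at 3835, 3945 and 3461 against 6317, 5540 and 5259. Every library labelled pIpC lay above every PBS library, and the rise was 0.60 ± 0.13 (SE) on the log2 scale (limma adjusted p = 0.011; 0.55 without PBS replicate 3). Relative to the mean log2 level of Eif2s1 and Eif2s2, Eif2s3x stood at 0.24, 0.19 and -0.51 in PBS and at 1.00, 1.11 and 1.00 in the libraries labelled pIpC, a difference in log2 ratio of 1.06 ± 0.24 (SE), or 0.82 without PBS replicate 3. The exact permutation p was 0.1, the smallest possible, and this ratio was chosen after the values were seen. Beside it, Xist, the RNA of the inactive X chromosome in female cells, was at 51.0, 72.9 and 15.8 in PBS and at 18429, 26173 and 19942 in the libraries labelled pIpC; the part of the X chromosome in the values of Eif2s3x and Eif1ax was not tested. Eif2a and Eif2d, alternative tRNA carriers, had log2 fold changes of -0.20 and -0.09 and did not pass. Without PBS replicate 3 they were at -0.20 (limma adjusted p = 0.035) and 0.04.

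Eif2b3 had the greatest difference of all 48 factors and the other 4 subunits of eIF2B did not pass. Eif2b3 encodes the gamma subunit of this exchange factor (chromosome 4, 117019402 to 117087306) and was counted at 577, 642 and 998 in PBS and at 320, 264 and 242 in the libraries labelled pIpC, with no overlap. It fell by 1.39 ± 0.24 (SE) on the log2 scale (limma adjusted p = 0.0044; -1.15 without PBS replicate 3). Eif2b5, the catalytic epsilon subunit, was at 1075, 1122 and 1811 against 1110, 945 and 999.9 (log2 fold change -0.35; -0.11 without PBS replicate 3). Eif2b2 was at 977, 1022 and 1832 against 1032, 986 and 961 (-0.30; -0.0097 without PBS replicate 3), and Eif2b1 at 656, 634 and 961 against 893, 704 and 784 (0.10). Eif2b4 was at 477, 533 and 940.4 against 763, 607 and 647 (0.11), and without PBS replicate 3 both Eif2b1 (0.29, limma adjusted p = 0.044) and Eif2b4 (0.41, limma adjusted p = 0.015) were higher. PBS replicate 3 was the highest PBS library for all 5 subunits, and a ratio within each library removes that shared excess. The log2 ratio of Eif2b3 to the mean of the other 4 subunits was -0.39, -0.30 and -0.40 in PBS and -1.55, -1.59 and -1.79 in the libraries labelled pIpC. The difference was -1.28 ± 0.08 (SE), and -1.30 without PBS replicate 3, with an exact permutation p of 0.1, the smallest possible, for a ratio chosen after the values were seen.

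**Figure D3:**
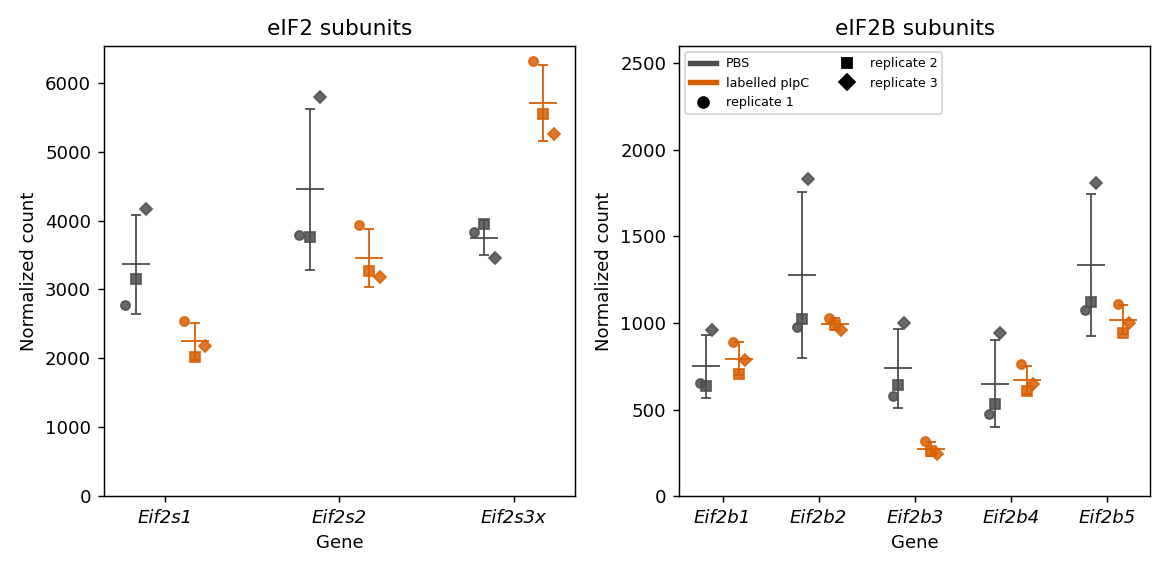
Normalized counts of the eIF2 subunits (left) and the eIF2B subunits (right) in each library, on linear axes from 0; gray is PBS, orange is labelled pIpC, marker shape is the replicate, and bars are the mean and SD of 3 libraries. Eif2s3x is higher and Eif2b3 lower in every library labelled pIpC, and the other eIF2B subunits overlap between the groups.

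All 14 genes of eIF3 had a log2 fold change below 0, against 49.2% of all genes, with a median of -0.61. However, Eif3c was at 0.02 without PBS replicate 3 and at 0.055 with the length trend removed. The 6 that fell were Eif3b, Eif3e, Eif3h, Eif3j1, Eif3j2 and Eif3m, where 20.4% of all genes were lower. For 12 of the 14, every library labelled pIpC lay below every PBS library, against 26.3% of all genes. Eif3m, a subunit with a PCI domain, was counted at 2987, 2988 and 6077 in PBS and at 2363, 1996 and 2084 in the libraries labelled pIpC and fell by 0.82 ± 0.29 (SE) on the log2 scale (limma adjusted p = 0.065; -0.48 without PBS replicate 3). Eif3e, at 5026, 4835 and 8004 against 3897, 3297 and 3284, fell by 0.73 (limma adjusted p = 0.037; -0.50 without PBS replicate 3), and Eif3h, at 5892, 5821 and 9140.5 against 4443, 4348 and 4557, fell by 0.61 (limma adjusted p = 0.0498; -0.40 without PBS replicate 3). Eif3e, Eif3h and Eif3m encode subunits of the core of eIF3 that is built from PCI and MPN domain proteins, and in each of the 3 cases PBS replicates 1 and 2 were close together. Eif3b, which anchors the subunits encoded by Eif3g and Eif3i, was at 6814, 7595 and 9765 against 5583, 5035 and 5195 (log2 fold change -0.60, limma adjusted p = 0.029; -0.45 without PBS replicate 3). Eif3j1 and Eif3j2 encode copies of the loosely bound subunit eIF3j; they are near-identical, so that reads could be split between them, and 19.0% of the exon bases of Eif3j1 lie opposite Spg11. Eif3j1 was at 2692, 2692 and 3515 against 2229, 1758 and 1819 (-0.61; -0.48 without PBS replicate 3), and Eif3j2 at 653, 701 and 1054 against 484, 423 and 443 (-0.80; -0.59 without PBS replicate 3). The log2 ratio of Eif3j1 to Eif3j2 averaged 1.91 in PBS and 2.10 in the libraries labelled pIpC, with overlapping libraries.

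The remaining subunits of eIF3 did not pass with PBS replicate 3 included. Eif3d, Eif3f, Eif3g, Eif3i and Eif3k had log2 fold changes of -0.56 to -0.68, and PBS replicate 3 was 2.05 to 2.40 times the mean of PBS replicates 1 and 2 for each. Eif3g, for example, was at 2131, 2332 and 5352 against 2081, 1765 and 1954, and all 5 were lower without that library, by 0.19 to 0.34 on the log2 scale. Eif3d shares 43.3% of its exon bases with an antisense gene of low count. Eif3a, the scaffold of the complex, was at 14085, 14699 and 9430.2 against 11039, 10355 and 9757, with PBS replicate 3 the lowest library (log2 fold change -0.27; without it -0.47, limma adjusted p = 0.000535). Eif3l had -0.27, and -0.12 without PBS replicate 3. Eif3c, a subunit of the PCI and MPN core, was at 6097, 6529 and 6978 against 6697, 6219 and 6241 (-0.03, limma adjusted p = 0.851), the smallest difference of the 14. Against the mean of the other subunits it stood at 0.81, 0.88 and 0.27 in PBS and at 1.19, 1.25 and 1.21 in the libraries labelled pIpC (log2 ratio; exact permutation p = 0.1, the smallest possible, chosen after the values were seen). Without PBS replicate 3, 12 of the 14 genes were lower, all except Eif3c and Eif3l, where 30.6% of all genes were lower. The median of the 14 was then -0.37, against 0.008 for all genes.

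**Figure D4:**
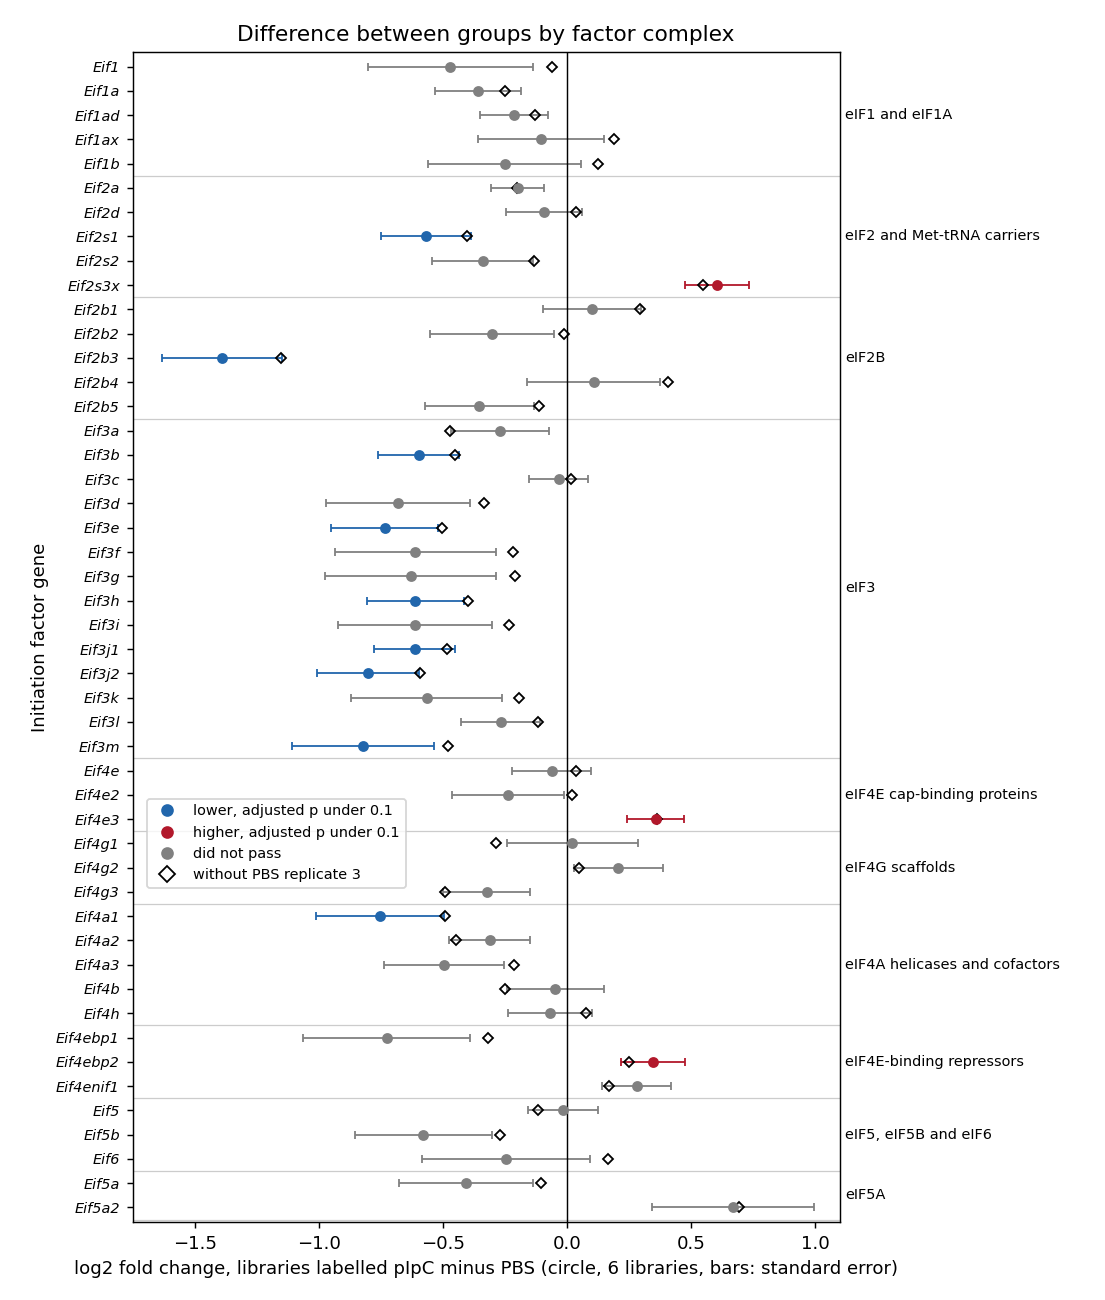
Log2 fold change of each of the 48 factors, libraries labelled pIpC minus PBS, grouped by complex; circles are the fit over 6 libraries with bars of 1 standard error, blue lower and red higher at an adjusted p under 0.1, gray not past it, and open diamonds are the fit without PBS replicate 3. All 14 eIF3 circles lie left of 0, with the diamond of Eif3c at 0.02, and Eif2b3 lies farthest left at -1.39.

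Among the helicases and their cofactors, Eif4a1 fell and 4 did not pass. Eif4a1, the main helicase of cap-dependent initiation, was counted at 20641, 23062 and 37842 in PBS and at 18102, 14269 and 14543 in the libraries labelled pIpC, and its fall was 0.75 ± 0.26 (SE) on the log2 scale (limma adjusted p = 0.061; -0.49 without PBS replicate 3). Its paralog Eif4a2 was at 9940.4, 10162 and 7600.3 against 8153, 7344 and 6720 (-0.31, not past the threshold; -0.45 without PBS replicate 3, limma adjusted p = 0.0019). The groups overlapped in the ratio of both, and per kilobase of exon Eif4a1 made up 71.9%, 73.6% and 86.0% of the pair in PBS and 73.2%, 70.5% and 72.7% in the libraries labelled pIpC. Eif4a3, the helicase of the exon junction complex, was at 3470, 3441 and 6214 against 3075, 2915 and 2952 (-0.50, limma adjusted p = 0.153; -0.21 without PBS replicate 3, limma adjusted p = 0.014). The cofactors Eif4b and Eif4h had log2 fold changes of -0.05 and -0.07, and Eif4h was at 0.08 without PBS replicate 3. Eif4b was at 11842, 11654 and 7674 against 9791, 9974 and 9854 and was lower by 0.25 without PBS replicate 3 (limma adjusted p = 0.0060).

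Of the 3 cap-binding genes tested, 1 rose and 2 did not pass. Eif4e, the main cap-binding protein, was at 2085, 2412 and 2759 against 2680, 2153 and 2120 (log2 fold change -0.06, limma adjusted p = 0.787; 0.04 without PBS replicate 3), so the groups overlapped. Eif4e2, which binds the cap and can block initiation, was at 1429, 1418 and 2430 against 1532, 1410 and 1392 (-0.24; 0.02 without PBS replicate 3). Eif4e3, a weaker cap-binding relative, was at 804, 730 and 773 against 993, 1017 and 948 and rose by 0.36 ± 0.11 (SE) on the log2 scale (limma adjusted p = 0.048), with no overlap and the same 0.36 without PBS replicate 3; 14.8% of its exon bases are shared with another gene model. Its call was lost after quantile normalization, with the replicate block, and when PBS replicate 2 or any library labelled pIpC was left out. The log2 ratio of Eif4e to Eif4e3 was 1.37, 1.72 and 1.83 in PBS and 1.43, 1.08 and 1.16 in the libraries labelled pIpC, and overlapped.

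No eIF4G scaffold passed the main test with all libraries. Eif4g1, the main scaffold, was at 10755, 11599 and 5862 against 9504, 9134 and 8829; the fold change of 0.02 (log2) became -0.29 without PBS replicate 3 (limma adjusted p = 0.0058). Eif4g3, its paralog, was at 7076, 6647 and 4811 against 4499, 5087 and 5060 (-0.32, limma adjusted p = 0.195). Its log2 fold change was -0.49 without PBS replicate 3 (limma adjusted p = 0.00050). With the length trend removed it was -0.59 (limma adjusted p = 0.0027). Eif4g2, a relative that does not bind eIF4E, was at 20628, 20589 and 14784 against 21877, 21893 and 20167 (0.21, limma adjusted p = 0.402; 0.05 without PBS replicate 3). In these 3 long transcripts PBS replicate 3 lay below PBS replicates 1 and 2, the reverse of most factors.

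The eIF4E-binding repressors split. Eif4ebp2 was at 4392, 4315 and 3575 against 4946, 5264 and 5350.4 and rose by 0.35 ± 0.13 (SE) on the log2 scale (limma adjusted p = 0.079; 0.25 without PBS replicate 3). The call was lost with edgeR (adjusted p = 0.102), after quantile normalization (limma adjusted p = 0.189) or median centring, with no filter, with no intensity trend, with the replicate block, and when PBS replicate 2 or any library labelled pIpC was left out. Eif4ebp1, the form most studied as a target of mTOR, was at 858, 765 and 1901 against 638, 687 and 630 and did not pass (-0.73, limma adjusted p = 0.138), although all libraries labelled pIpC lay below PBS and the value without PBS replicate 3 was -0.32 (limma adjusted p = 0.015). The log2 ratio of Eif4ebp1 to Eif4ebp2 was -2.35, -2.49 and -0.91 in PBS and -2.95, -2.94 and -3.09 in the libraries labelled pIpC, a difference of -1.07, or -0.57 without PBS replicate 3. Eif4enif1, which carries eIF4E into the nucleus and holds it in repressed messenger ribonucleoproteins, was at 1974, 1899 and 1537 against 2030.1, 2212 and 2305 (0.28, limma adjusted p = 0.160; 0.17 without PBS replicate 3, limma adjusted p = 0.077), with no overlap. Eif4ebp3 was at 6.06, 11.1 and 1.13 against 12.0, 15.3 and 8.70, and 67.3% of its exon bases are shared with another gene.

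Factors of the last steps did not pass with all 6 libraries. Eif5, which activates GTP hydrolysis by eIF2, was at 8669, 8528 and 6969 against 8464, 7595 and 7765 (log2 fold change -0.02; -0.12 without PBS replicate 3). Eif5b, the GTPase that joins the ribosomal subunits, was at 3364, 4089 and 7041 against 3553, 2858 and 2866 (-0.58, limma adjusted p = 0.150). Without PBS replicate 3 it was lower by 0.27 on the log2 scale (limma adjusted p = 0.075). Of its exon bases, 16.85% lie opposite Rev1, from which unstranded libraries cannot tell it apart. Eif6, which keeps the large subunit apart until it is ready, was at 1370, 1517 and 3404 against 1741, 1538 and 1584 (-0.25), and the sign turned without PBS replicate 3 (0.17, limma adjusted p = 0.111). Eif5a, now known as an elongation factor for difficult peptide bonds, had the highest level of all 50 per kilobase of exon, 10584 normalized counts per kilobase in PBS and 7633 in the libraries labelled pIpC, from 18552, 20437 and 36485 against 19346, 17306 and 17778 counts (-0.41, limma adjusted p = 0.281; -0.10 without PBS replicate 3). Eif5a2, its rare paralog, was at 47.6, 23.3 and 35.1 against 60.9, 46.0 and 58.0 (0.67, limma adjusted p = 0.156; 0.69 without PBS replicate 3), and Eif5a made up at least 99.8% of the pair per kilobase in every library. Of 9 paralog pairs compared by their log2 ratio, 3 did not overlap between groups: Eif1 to Eif1b, Eif4ebp1 to Eif4ebp2 and Eif5a to Eif5a2, each lower in the libraries labelled pIpC (exact permutation p = 0.1, adjusted over the 9 pairs 0.3, where 3 against 3 cannot pass).

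The 5 factors with the highest mean normalized count over the 6 libraries were Eif5a (21651), Eif4a1 (21410), Eif4g2 (19989), Eif3a (11561) and Eif4b (10132), and only Eif4a1 among them passed. Per kilobase of exon in PBS, Eif5a was followed by Eif4a1 (6272), Eif3h (4312), Eif1 (3596) and Eif3f (2555). The SD of Eif5a and of Eif4a1 between PBS libraries, 9855 and 9311 normalized counts, was larger than the gap between any pair of neighbours among the first 3 by count.

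Among 32 regulators of initiation, 5 were lower and 3 higher (25% called, against 45.3% of all genes), with a median log2 fold change of 0.15. Without PBS replicate 3 the median was 0.01, and 10 were lower and 9 higher (59.4% called, against 65.1% of all genes). Ppp1r15a, the inducible subunit of the phosphatase that reverses eIF2 phosphorylation, had the greatest fall, from 1170, 1224 and 946 to 264, 204 and 215 (-2.28, limma adjusted p = 1.2e-04). Its constitutive relative Ppp1r15b had the greatest rise, from 3611, 3492 and 2373 to 6598, 7414 and 6745 (1.15, limma adjusted p = 0.0033). The other calls were Pabpc1, Pabpc4, Mcts1 and Pdcd4, an inhibitor of eIF4A, among the lower, and Rps6kb2 and Eif2ak2, an interferon-induced kinase of eIF2, among the higher. A list of 10 genes named for elongation and termination factors also held Eef2k, a kinase that inhibits eEF2, and Eef1e1, not itself an elongation factor. Of these 10, 5 were lower, Eef2k and Eef1e1 among them, and 2 higher (70% called, against 45.3% of all genes), with a median of -0.61. Without PBS replicate 3 they were 7 and 2 (90% called, against 65.1% of all genes). Eef1b2 was the lowest with all 6 libraries (-1.16, limma adjusted p = 0.054), with 28236 counts in PBS replicate 3 against 10416 and 10771 in the other PBS libraries, and was at -0.69 without it, when Eef1e1 was the lowest (-0.92). Gspt2, a termination factor, was counted at 0, 1.01 and 0 in PBS and at 149.7, 129.8 and 97.7 in the libraries labelled pIpC. It was 1 of the 2 higher calls, but it reached the test only through the libraries labelled pIpC, so its call could only be higher. Of the 4 factors listed as having 5′ TOP messenger RNAs, whose translation follows mTOR, Eif3e and Eif3h fell (50% called, against 45.3% of all genes). Eif3f and Eif4b did not pass. Without PBS replicate 3 all 4 were lower, where 30.6% of all genes were lower.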

How the data were processed

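RNA-seq libraries of GFP+ bone marrow cells, 3 labelled PBS and 3 labelled pIpC, were analysed from 1 table of normalized counts that the authors deposited, treated here as a signal. The submitters' processing notes name HISAT2 2.2.1, SAMtools, featureCounts (Subread), edgeR and GRCm38, whereas the study's methods give STAR with RSEM on mm10 within nf-core/rnaseq; the paper also states c-Kit+ cells and stranded libraries where the labels state GFP+ cells and unstranded libraries. Dividing a column by its smallest step gave whole numbers within 0.02 for 100% of values above 0, and the read counts recovered in this way totalled 19277439 to 22378154 in PBS and 22348517 to 23586722 in the libraries labelled pIpC. Symbols and exon lengths came from GENCODE M21 (55141 of 55487 identifiers matched), and exon length is the union of a gene's exons. No column was left out, and ribosome occupancy and protein were not measured.

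The main test was limma 3.58.1 (R 4.3.3) on the log2 of the normalized count plus 1 (prior variance trended by intensity), over the 15020 genes averaging 10 or more, at a Benjamini-Hochberg adjusted p under 0.1. Fold changes are on that scale. Alternatives were pseudocounts of 0.1 and 10, filters at 0 and at a mean of 50, quantile normalization, median centring, omission of each library, a replicate block, an untrended prior, an adjusted p under 0.05, and edgeR 4.0.16 and DESeq2 1.42.0 on recovered reads. Removal of each library's trend with exon length, and subunit ratios, were added after the data were seen. The scripts were tested on simulated data. Deviations of same-numbered libraries correlated at -0.117, 0.143 and 0.041, so numbers were not taken as pairs, and no libraries agreed within counting noise (chi-square per gene 6.30 to 193.9 within groups).

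Named with values by rule were the highest and lowest factor of each list, paralog pairs and the 5 factors of highest mean count. The rule also named calls against their list's majority. Outside the factors it named Brd9, Myc, Xist and the highest and lowest of the regulators and of the elongation and termination factors. Others were named after their values were seen. Members and lists were chosen with earlier results of these data known.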

Additional observations from a re-analysis of the deposited data

How the results depend on the processing

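With all 6 libraries, 12 factors passed (3 higher, 9 lower). The count was 21 (1 higher, 20 lower) after quantile normalization and 19 (16 lower) with DESeq2, and 14 were lower after the length trend was removed. When single libraries were omitted, the count ranged from 3 to 30, the higher calls from 1 to 7 and the lower calls from 2 to 23. The median of the eIF4G scaffolds then ranged from -0.29 to 0.20, and that of eIF5A was -0.41 with a mean of at least 50, where Eif5a alone was tested. A replicate block gave 10 calls, 1 higher (Eif2s3x) and 9 lower, and same-numbered libraries were not paired by their deviations. Over the 37 genes named by rule, some of which were not initiation factors, 702 comparisons gave 611 with the same direction and call. In the rest, 42 lost a call, 22 gained it and 27 changed sign.

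No sign change touched a factor that passed with all libraries. Among factors outside the rule, Eif2d, Eif4h and Eif6 turned positive (0.04, 0.08 and 0.17) without PBS replicate 3. When single libraries were omitted, log2 fold changes ranged from -0.28 to 0.19 for Eif1ax, -0.47 to 0.12 for Eif1b, -0.082 to 0.41 for Eif2b4, -0.081 to 0.017 for Eif3c, -0.25 to 0.062 for Eif4b, -0.17 to 0.039 for Eif4e, -0.37 to 0.020 for Eif4e2, -0.29 to 0.20 for Eif4g1 and -0.12 to 0.041 for Eif5. With the length trend removed, with and without the block, Eif1b was at 0.13, Eif3c at 0.055, Eif4g1 at -0.12 and Eif4g2 at -0.035. Eif4g1 was at -0.013 with quantile normalization, -0.015 after median centring, -0.054 with edgeR and -0.041 with DESeq2. The causes were not tested. PBS replicate 3, with higher values for 36 of the 48 factors and more so for short genes, limits what 3 against 3 libraries can resolve.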
